A study of Mus musculus with 12 samples.

Results

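A set of 8 genes from the machinery that carries calcium through cells of the distal nephron was followed in mouse kidney tubules sorted by fluorescence. The genes were taken by their name on the array from a list of 9: the apical channels Trpv5 and Trpv6, the cytosolic calcium-binding proteins Calb1, S100g and Pvalb, the basolateral sodium calcium exchanger Slc8a1, and the plasma membrane calcium pumps Atp2b1, Atp2b2 and Atp2b4. By this name rule 8 of the 9 genes had a probe, and Atp2b4 was not analysed here. The 8 genes, of 27597 gene names on the array, were covered by 17 of its 41174 probes. Slc8a1 had 7 probes, Atp2b1 had 4, and each of the other genes had 1.

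In the distal convoluted tubule (DCT), the segment after the thick ascending limb, and in the connecting tubule that follows it, calcium is reabsorbed through the cell and against its gradient. It enters from the urine through apical TRPV channels, is bound and carried by calbindins, and leaves into the blood by sodium calcium exchange and by ATP-driven pumps. Parathyroid hormone and vitamin D are known to raise this transport, and the early DCT is known for parvalbumin, the late DCT and connecting tubule for TRPV5 and calbindin.

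Renal tubules in suspension from 4 mice were passed through a COPAS instrument, a flow sorter for large particles. Fluorescent tubules, which the study identifies as DCT, made up the EGFP+ fraction, tubules without fluorescence the EGFP- fraction, and a total fraction, called ALL, was collected by the same sorter. Mice 1 and 3 were female and mice 2 and 4 male, so that each fraction had n = 4 mice and each of the 12 arrays held 1 fraction of 1 mouse. All fractions came from the same mice, no treatment is named, and the sources used here give no strain, no age and no promoter for EGFP. Whether the sort itself selected on a gene described here therefore cannot be told. RNA was extracted with an Ambion microRNA kit, amplified, labelled with Cy3 and hybridised to 1-colour Agilent arrays.

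A level is the log2 of a probe's processed signal minus the array's 75th percentile, so 0 is the upper quartile of the array, and levels of different probes cannot be set against each other. Over the arrays the 75th percentile lay at 922 to 2270, the share of probes well above background at 54.0% to 65.6%, and the number of saturated spots at 0 to 2. Tests were limited to the 25819 probes that 4 or more of the 12 arrays measured well above background, 16 of the 17 member probes among them. Differences, with their standard error (SE), are from a limma fit over the 12 arrays with no term for the mouse. A probe passed the threshold with an adjusted p under 0.05 over all probes tested. The error of a level is the standard deviation (SD) over mice. Slc12a3, which encodes the DCT's sodium chloride cotransporter, was 8.37 ± 0.29 (SE) higher in EGFP+ than in EGFP- tubules, in 4 of 4 mice, so the arrays bore out their labels. All 6 DCT markers were higher, with summed linear levels of 322 to 391 in EGFP+ and 7.65 to 11.7 in EGFP- tubules.

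All 8 genes measured were higher in EGFP+ than in EGFP- tubules by their brightest probe, in a fit where 32.1% of 17071 genes were higher and 25.7% lower. By probe, 14 of the 16 passed the threshold as higher and 0 as lower, against a background of 32.8% of all tested probes called higher. The median difference was 3.60 over the member probes and 3.09 over the 8 genes by 1 probe each, beside 0.14 over all probes tested. The 4 EGFP+ arrays lay entirely above the 4 EGFP- arrays for 13 of the 15 member probes with a value on each of them, as they did for 31.2% of all such probes. The 2 probes that did not pass both belong to Atp2b1, the pump that is found in most cell types. Against the total fraction, which shares its EGFP+ arrays with the first comparison, 14 of 16 probes were also higher, with 31.1% of all probes called higher, no overlap for 13 of 15 (29.5% of all probes) and a median of 2.41 beside 0.13. Because whole tubule fragments were pooled per array, fewer cells of a type and less RNA per cell cannot be told apart.

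**Figure D1:**
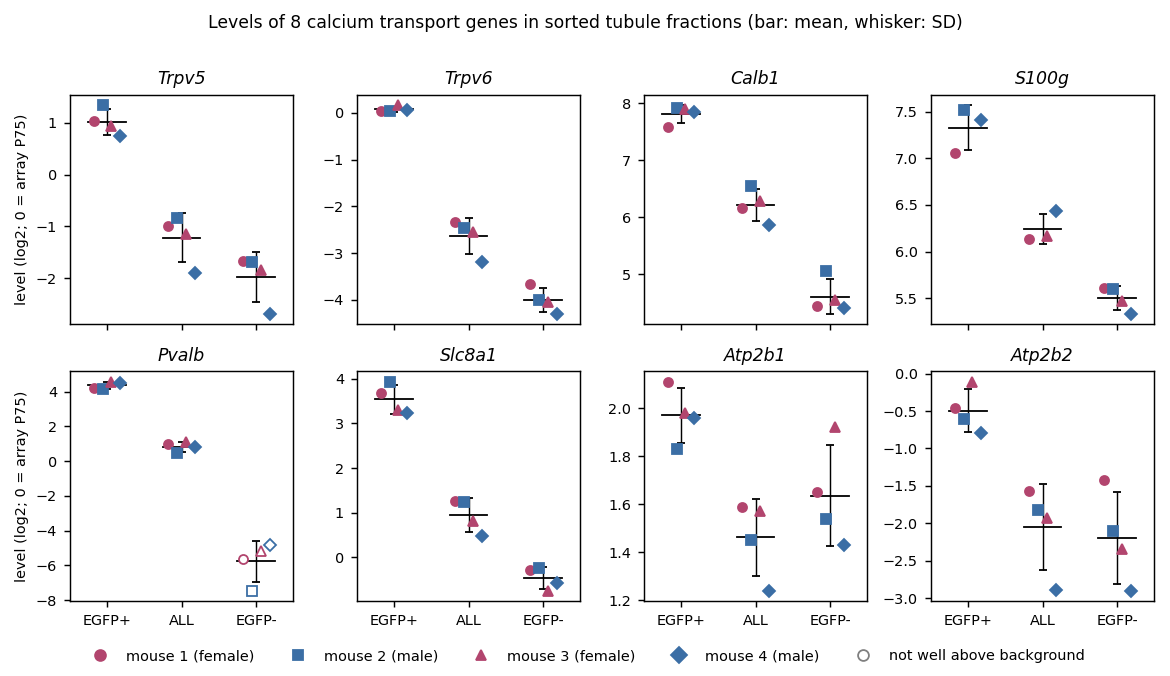
Level (log2, 0 is the array's 75th percentile, called P75) of the brightest probe of each of 8 genes by fraction, each point 1 mouse, with the mean (bar) and SD (whisker) and with its own vertical axis per gene. EGFP+ points lie above all others for every gene but Atp2b1, whose groups differ by 0.33, and all 4 EGFP- points of Pvalb are open because that probe was not well above background there.

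The 2 apical entry channels were both strongly enriched in the fluorescent tubules. TRPV5 and TRPV6 are closely related proteins whose genes lie beside each other, and their probes differ in sequence. The first 30 bases of each 60-base probe, 5′ to 3′ and in lower case throughout, show this, with positions on chromosome 6 in the mm8 build (minus strand) of 41582593 to 41582652 for Trpv5 and 41550575 to 41550634 for Trpv6.
Trpv5 probe A_51_P239601: gaagagagctgctttgcaagagtttgaatt
Trpv6 probe A_51_P479029: gacagctaaggtcatcctgcgagtccaagg
Over all 109 pairs of probes from different member genes, the highest identity in any ungapped overlap of at least 30 bases was 51.5%. Probes were set against probes only, so whether either probe also binds the other channel's transcript was not tested.

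The Trpv5 levels in mice 1 to 4 were 1.04, 1.34, 0.93 and 0.75 in EGFP+, -1.0, -0.84, -1.14 and -1.90 in ALL, and -1.67, -1.69, -1.85 and -2.69 in EGFP- tubules. The EGFP+ values stood apart from both other fractions, whose ranges overlapped, and mouse 4 was the lowest in every fraction. Trpv5 was 7.94-fold higher in EGFP+ than in EGFP- tubules (95% interval 5.26 to 12, log2 difference 2.99 ± 0.27, adjusted p = 1.9e-06, 4 of 4 mice) and 2.23 higher on the log2 scale than in ALL (adjusted p = 2.7e-05). The difference of 0.76 between ALL and EGFP- tubules did not pass (adjusted p = 0.667), but did so with the mouse as a block (adjusted p = 0.0220), in 4 of 4 mice.

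For Trpv6, the related channel better known from the intestine, levels in mice 1 to 4 were 0.04, 0.03, 0.16 and 0.05 in EGFP+, -2.34, -2.47, -2.55 and -3.20 in ALL, and -3.67, -4.0, -4.04 and -4.30 in EGFP- tubules. The 3 fractions did not overlap, and the EGFP+ arrays lay within an SD of 0.06. Trpv6 was 16.8-fold higher in EGFP+ than in EGFP- tubules (12.7 to 22.3, log2 difference 4.07 ± 0.19, adjusted p = 8.3e-09), 2.71 higher than in ALL (adjusted p = 2.6e-07), and 1.37 higher in ALL than in EGFP- tubules (adjusted p = 0.00276). The last call was lost without mouse 2 (adjusted p = 0.103) and without mouse 3 (adjusted p = 0.100). Within each of the 4 mice the Trpv6 difference between EGFP+ and EGFP- exceeded that of Trpv5, by 1.08 ± 0.23 (SD). The exact sign-flip test over 4 mice gave p = 0.125, the smallest 4 mice allow (two-sided).

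Vitamin D and other nuclear hormone receptors bind DNA elements built on the core AGGTCA. The 250 bases before the start of Trpv5 and Trpv6 are shown because both genes were higher in EGFP+ tubules. The bases come from RefSeq in the GRCm38.p6 build, minus strand, with each match to a searched motif in capitals.
Trpv5 promoter, chr6:41680724-41680973: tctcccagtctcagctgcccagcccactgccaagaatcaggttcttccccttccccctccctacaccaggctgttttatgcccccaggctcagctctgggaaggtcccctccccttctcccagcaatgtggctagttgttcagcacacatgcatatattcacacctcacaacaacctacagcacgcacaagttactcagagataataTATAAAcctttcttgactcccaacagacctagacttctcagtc
Trpv6 promoter, chr6:41636406-41636655: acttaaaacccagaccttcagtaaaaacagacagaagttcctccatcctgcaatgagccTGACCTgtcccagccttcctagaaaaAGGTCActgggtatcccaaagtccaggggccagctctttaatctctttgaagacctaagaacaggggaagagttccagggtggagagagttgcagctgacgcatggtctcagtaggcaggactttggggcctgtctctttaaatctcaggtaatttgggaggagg
The Trpv5 window holds 1 TATAAA, starting 43 bases before the gene's start, a motif found in 12.4% of the 32851 promoter windows of the same length. The Trpv6 window holds AGGTCA at 165 bases before the start and its complement TGACCT at 191, and 14.0% of all windows hold at least 1 such core on either strand. The other motifs searched on both strands were GTTAAT, the core bound by HNF1 (6.43% of windows), the E box CACGTG (6.02%) and the GC box GGGCGG (32.7%). None of these was found in the Trpv5 or the Trpv6 window. A match describes these letters only.

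The calcium-binding proteins behaved differently from each other. Calb1, calbindin-D28k, which shuttles calcium from the apical to the basolateral side, was measured by 10 spots of 1 probe on each array (A_51_P335801, chromosome 4, 15832543 to 15832602, mm8, plus strand). Its levels in mice 1 to 4 were 7.58, 7.91, 7.90 and 7.85 in EGFP+, 6.16, 6.54, 6.29 and 5.86 in ALL, and 4.44, 5.06, 4.54 and 4.40 in EGFP- tubules. The 3 fractions did not overlap. Calb1 was 9.18-fold higher in EGFP+ than in EGFP- tubules (7.0 to 12, log2 difference 3.20 ± 0.18, adjusted p = 3.4e-08) and 1.59 higher on the log2 scale than in ALL (adjusted p = 1.4e-05).

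ALL exceeded EGFP- for Calb1 by 1.60 (adjusted p = 6.4e-04), as large a step as that from ALL to EGFP+, and this call was lost under quantile normalization (adjusted p = 0.0578). The Calb1 probe was among the brightest here, with mean EGFP+ signals of 357076. On the EGFP+ array of mouse 3, 1 of its spots was saturated, and on the ALL array of mouse 2 only 1 spot was free of an outlier mark. The SD among spots was 0.12 to 0.15 on the EGFP+ arrays and 0.02 to 0.08 on the others, so the spots of the brightest arrays scattered most. Its EGFP+ minus EGFP- difference ran from 3.03 to 3.35 over 14 alternative settings, among them one without saturated spots.

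S100g, calbindin-D9k, the smaller vitamin D-dependent calcium carrier, showed the smallest enrichment of the 3 binding proteins. Its spot (A_51_P118545, chromosome X, 158306205 to 158306264, mm8, minus strand) carried an outlier mark in EGFP+ of mouse 3 and ALL of mouse 2, and the fit dropped both. The remaining levels were 7.06, 7.52 and 7.41 in EGFP+ of mice 1, 2 and 4, 6.13, 6.17 and 6.43 in ALL of mice 1, 3 and 4, and 5.61, 5.60, 5.47 and 5.33 in EGFP- of mice 1 to 4. The fractions did not overlap. S100g was 3.55-fold higher in EGFP+ than in EGFP- tubules (2.81 to 4.48, log2 difference 1.83 ± 0.15, adjusted p = 3.6e-06, 3 of 3 mice with both values). It was 1.09 higher than in ALL (adjusted p = 2.7e-04), and 0.74 higher in ALL than in EGFP- tubules, which did not pass (adjusted p = 0.0610) but did so with the marked spots kept (adjusted p = 0.0180) and in a fit of 1 probe per gene (adjusted p = 0.0488).

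The S100g promoter window is shown because it and that of Trpv6 are the member windows with the AGGTCA core, 2 of the 12 windows that 8 of the listed genes have in the RefSeq table. Of all windows, 14.0% hold this core.
S100g promoter, chrX:162964600-162964849 (GRCm38.p6, minus strand): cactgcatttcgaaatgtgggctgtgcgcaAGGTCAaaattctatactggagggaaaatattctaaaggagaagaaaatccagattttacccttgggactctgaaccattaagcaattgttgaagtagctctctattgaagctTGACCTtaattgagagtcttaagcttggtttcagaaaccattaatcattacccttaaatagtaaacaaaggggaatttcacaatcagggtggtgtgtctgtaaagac
The core starts 220 bases before the gene's start and its complement 107 bases before it. The window has 38.4% G and C, below the median of 52.4% over all windows. GGGCGG, absent here, was found in 4 of the 12 member windows, all of Atp2b1 or Atp2b2, and in 32.7% of all windows.

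Pvalb, parvalbumin, a fast calcium buffer, was measured in EGFP+ and ALL but not above background in EGFP- tubules, so that its difference from EGFP- is known only as a lower bound. Its probe lies on chromosome 15 at 78018472 to 78018531 (mm8, minus strand), and the first 30 bases are shown because it is the member probe with such a bound.
Pvalb probe A_51_P500156: gtgatggatcgtccatcttaaagatacaga
Levels in mice 1 to 4 were 4.23, 4.15, 4.57 and 4.49 in EGFP+, 0.97, 0.45, 1.11 and 0.81 in ALL, and -5.61, -7.45, -5.17 and -4.85 in EGFP- tubules, where the probe was well above background on 0 of 4 arrays. The EGFP+ values were tightly grouped, and the EGFP- values scattered below the detection limit. Taken against the lowest signals called above background, Pvalb was at least 781-fold higher in EGFP+ than in EGFP- tubules and at least 67.8-fold higher in ALL. The limma fit of EGFP+ against EGFP- gave an adjusted p = 6.5e-09, but it used the EGFP- values below the detection limit and does not test the bound. Between EGFP+ and ALL, both measured, it was 11.5-fold higher (5.85 to 22.7, adjusted p = 3.8e-05).

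Slc8a1, the exchanger NCX1 that trades intracellular calcium for sodium at the basolateral membrane, was measured by 7 probes, of which 6 were tested. All 6 were higher in EGFP+ than in EGFP- tubules, by 4.00 to 4.37 (median 4.06), and higher than in ALL by 2.58 to 2.90. For the brightest, A_51_P277373, levels in mice 1 to 4 were 3.69, 3.93, 3.29 and 3.24 in EGFP+, 1.27, 1.25, 0.81 and 0.49 in ALL, and -0.28, -0.23, -0.74 and -0.58 in EGFP- tubules. The fractions did not overlap, and the exchanger was 16-fold higher in EGFP+ than in EGFP- tubules by this probe (11.5 to 22.2, 4.00 ± 0.22, adjusted p = 2.7e-08). By probe A_52_P562704 it was 20.6-fold higher (15.2-fold at the lower bound, adjusted p = 8.7e-09).

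The 6 detected Slc8a1 probes rose and fell together over the 12 arrays, with Pearson correlations of at least 0.98 between them. These points share 3 fractions and the same libraries. The 7th probe, A_52_P244931, stayed under that limit on all 12 arrays, with mean levels of -7.24 (EGFP+), -7.76 (ALL) and -7.44 (EGFP-). It lies at 81175253 to 81175312 on chromosome 17 (mm8, minus strand), downstream of the detected probes, which lie between 81281431 and 81353247. The first 30 bases of that probe and of the detected probe with the largest difference are set side by side.
Slc8a1 probe A_52_P562704 (detected): tttctcacagtgttctggaaggttctgttt
Slc8a1 probe A_52_P244931 (not detected): gcaaacataccttacaaacagatatgacta
A further probe, A_52_P313285, is outside the name rule but its description names the exchanger, and was picked after its values were seen. It was 4.24 ± 0.21 higher in EGFP+ than in EGFP- tubules (adjusted p = 1.4e-08).

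ALL exceeded EGFP- for the 6 Slc8a1 probes by 1.22 to 1.52, and 3 of the 6 passed. With the mouse as a block the other 3 passed as well, with adjusted p-values of 0.00439, 0.00748 and 0.0126. Over all member probes 6 of 16 were higher in ALL than in EGFP- tubules, those of Trpv6, Calb1 and Pvalb and 3 of Slc8a1, where only 1.08% of all probes were called higher, and the mouse block made this 10. Leaving out mouse 1, 2 or 3 reduced the 6 to 3, 3 and 2. For 6 of the 15 member probes with a value on each array ALL and EGFP- did not overlap, as for 2.41% of all such probes, and the median difference was 1.22 beside 0.00.

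The 2 pumps measured were Atp2b1 and Atp2b2. Atp2b1, PMCA1, is the widely expressed plasma membrane calcium pump, and its brightest probe (A_52_P348986, chromosome 10, 98453269 to 98453329, mm8) had levels of 2.11, 1.83, 1.98 and 1.96 in EGFP+, 1.59, 1.45, 1.57 and 1.24 in ALL, and 1.65, 1.54, 1.92 and 1.43 in EGFP- tubules of mice 1 to 4. The EGFP+ and EGFP- values overlapped, through mouse 3. The difference of 0.33 ± 0.13 passed narrowly (adjusted p = 0.0458) and was lost under 7 alternatives, among them leaving out mouse 1, 2 or 4 (adjusted p = 0.177, 0.119 and 0.124).

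Of the other 3 Atp2b1 probes, A_52_P351913 was 0.99 ± 0.38 higher (adjusted p = 0.0424), with only 2 of 4 EGFP- arrays well above background, and that call was lost without any of the 4 mice (adjusted p = 0.0702, 0.108, 0.0536 and 0.103 without mice 1 to 4). A_51_P222543 differed by 0.25 (adjusted p = 0.115, 0.0418 with the mouse as a block) and A_51_P230799 by 0.51 (adjusted p = 0.112, 0.0476 with the block). Against ALL the 4 probes differed by 0.32 to 0.84, 2 of them past the threshold and all 4 with the block. All 4 had higher means in EGFP+ than in either other fraction.

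Atp2b2, PMCA2, a pump of faster kinetics best known from hair cells and neurons, was measured by 1 probe (A_51_P256384, chromosome 6, 113714130 to 113714189, mm8, minus strand). Levels in mice 1 to 4 were -0.46, -0.61, -0.11 and -0.80 in EGFP+, -1.57, -1.82, -1.93 and -2.89 in ALL, and -1.42, -2.11, -2.35 and -2.90 in EGFP- tubules. EGFP+ stood above both other fractions, which overlapped. Atp2b2 was 3.26-fold higher in EGFP+ than in EGFP- tubules (1.96 to 5.39, 1.70 ± 0.33, adjusted p = 9.5e-04) and 1.56 higher than in ALL (adjusted p = 0.00192). ALL and EGFP- differed by 0.14 (adjusted p = 1, 95% interval -0.59 to 0.87).

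**Figure D2:**
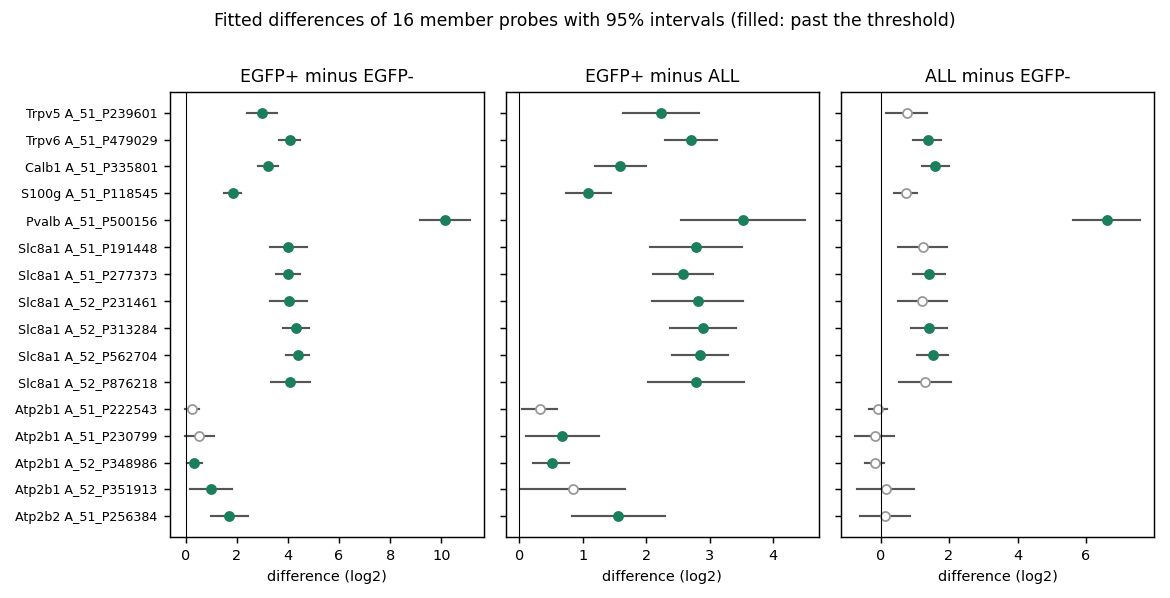
Fitted log2 difference (point) with its 95% interval (line) for the 16 tested member probes in the 3 comparisons of fractions, with filled points past the threshold and a separate horizontal axis per panel. In the EGFP+ minus EGFP- panel, Pvalb lies far to the right, at a fitted value of which only a lower bound was measured. In the same panel the 6 Slc8a1 probes line up between 4.00 and 4.37, and the 4 Atp2b1 probes lie nearest to 0.

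Ranked by the difference between EGFP+ and EGFP- tubules among the 23553 tested probes that were well above background on at least 1 array of both fractions, which leaves out Pvalb, the members lay at different heights. The Slc8a1 probes stood at ranks 102 to 157, Trpv6 at 141, Calb1 at 359 and Trpv5 at 433. S100g stood at 1116, Atp2b2 at 1278 and the Atp2b1 probes between 3108 and 10771. The intervals of Trpv5 and Calb1 overlap, as do those of Trpv6 and every Slc8a1 probe. Overlap of intervals does not test a difference, and whether these neighbours in the order differ was not tested.

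The EGFP- tubules kept a measurable share of most members. The EGFP- level was 28.2% of the EGFP+ level for S100g, 30.7% for Atp2b2, 12.6% for Trpv5, 10.9% for Calb1, 5.94% for Trpv6 and 4.84% to 6.26% for the Slc8a1 probes, against 0.303% for Slc12a3. The log2 difference between EGFP+ and EGFP- was smaller than that of Slc12a3 in 4 of 4 mice for Trpv5, by 5.38 ± 0.56 (SD), and for Calb1, by 5.17 ± 0.78, Trpv6, Slc8a1 and Atp2b2, and in 3 of 3 for S100g. The exact sign-flip test gave p = 0.125 for each gene with 4 mice and 0.250 for S100g, the smallest values these numbers allow (two-sided). Pvalb alone of the genes compared did not show a smaller difference than Slc12a3 in any mouse, with its EGFP- values below the detection limit. Markers of other cell types moved with this, as given with the marker lists, and their part in the result was not tested.

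On the linear scale the ALL level can be placed between EGFP- (0%) and EGFP+ (100%) in each mouse. The place was 10% ± 1.74 for Trpv5, 10.3% ± 3.06 for Trpv6, 8.66% ± 1.26 for Pvalb and 8.97% to 11.2% for the Slc8a1 probes, with 12.5% ± 3.39 for Slc12a3 (SD, n = 4 mice). Calb1 lay higher, at 29.5%, 29.0%, 25.5% and 17.6% in mice 1 to 4 (25.4% ± 5.50), and S100g was at 24.7% and 35.1% in mice 1 and 4, the only mice with all 3 values. Calb1 exceeded Slc12a3 in 4 of 4 mice, by 12.9 ± 2.29 percentage points (exact sign-flip p = 0.125, the smallest possible). Calb1 and S100g had the brightest member probes, with signals of 357076 and 273443 on average in EGFP+. The Slc12a3 probe was about as bright, with a mean EGFP+ level of 7.52 beside 7.81 for Calb1 and 7.33 for S100g. The part of signal brightness in these places was not tested. Quantile normalization moved Calb1 to 40.0% with a larger spread between mice, and the place of Atp2b1, whose fractions differ little, could not be fixed (-135% ± 224).

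**Figure D3:**
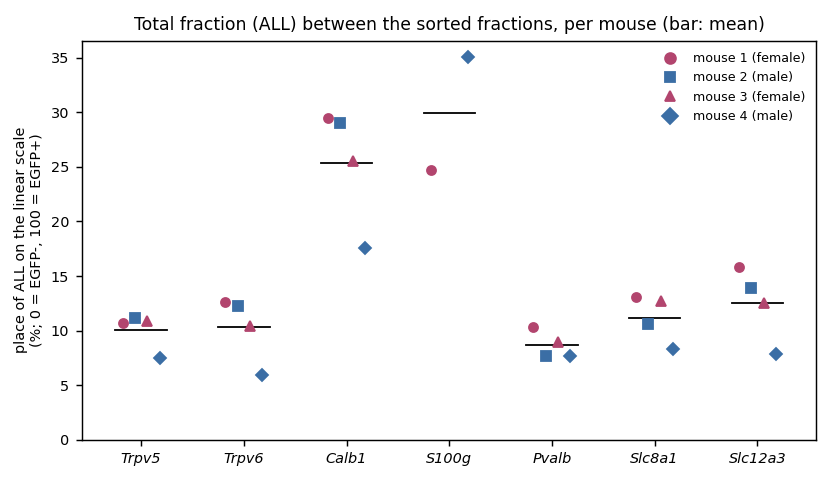
Place of the total fraction (ALL) between EGFP- (0%) and EGFP+ (100%) on the linear scale for 6 member genes and Slc12a3, each point 1 mouse and each bar the mean. Calb1 and S100g lie between 17.6% and 35.1%, while the other genes lie at 15.8% or below in every mouse.

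No member probe differed between males and females past the threshold. Over mouse means, 2 males against 2 females, 0 of 16 passed in limma and 1 had an unadjusted p under 0.05, with 1.05% of all probes called in either direction. That probe was Atp2b1 A_52_P351913, with a male minus female difference of -0.75 ± 0.19 (SE, adjusted p = 0.176). It was well above background on 0 of the 4 ALL and EGFP- arrays of males, and with normexp background correction the difference was 0.14. Trpv5 differed by -0.22, Calb1 by 0.12 and Pvalb, whose EGFP- values are below background, by -0.42. For S100g only 1 mouse of each sex had all 3 values, and with the marked spots kept the difference was 0.15 ± 0.12 (adjusted p = 0.542).

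Within the fractions, fitted as 6 groups of 2 arrays, 0 member probes passed in EGFP+, ALL or EGFP-, where 0.848%, 7.80% and 6.08% of all probes did, and 0, 1 and 1 members had an unadjusted p under 0.05. The dependence of the EGFP+ minus EGFP- difference on sex passed for 0 of 16 members and for 0% of all 25818 probes, with 0 members and 2947 of all probes at an unadjusted p under 0.05. With 2 mice per sex, these tests do not show that the sexes are alike.

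Among relatives of the members some genes were higher and others lower. The lists that follow hold other genes of the pathway, by their brightest tested probe, and their counts are for EGFP+ against EGFP- tubules, where 32.1% of all genes were higher and 25.7% lower, with a median of 0.11. The 2 measured TRPV relatives were both lower, Trpv2 by -3.16 and Trpv4, an osmotically gated channel, by -1.17 (adjusted p = 9.9e-06 and 0.00172). Of 10 further exchangers and calcium pumps the test called 2 higher and 2 lower and left 6 uncalled (median -0.38).

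Among these exchangers and pumps, Atp2c1, the Golgi calcium and manganese pump, was 1.24 higher and Slc8b1, the mitochondrial sodium calcium exchanger, 0.86 higher. Slc24a5 was at least 3.14-fold lower and Atp2a3, an endoplasmic reticulum pump, differed by -0.98. The values that did not pass were -0.35 for Slc8a2, -0.90 for Slc24a3, -1.44 for Slc24a4, 0.63 for Atp2c2, -0.41 for Atp2a1 and -0.20 for Atp2a2. Slc24a3 was well above background on 0 EGFP+ and 2 EGFP- arrays, so its fitted value is not a measured difference. No probe of Trpv3, Slc8a3, Slc24a1 or Slc24a2 was well above background on any array, and that of the pump Atp2b3 was so on 3 arrays and was not tested.

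Of 15 other calcium buffers and sensors, the test called 6 higher and 4 lower and left 5 uncalled (median 0.09). Calml3, a calmodulin-like protein, was 3.74 higher, a 13.3-fold difference, while Calml4 differed by -5.10, S100a6 by -2.53 and S100a4 by -2.36. S100a1, a relative of S100g, was 1.82 higher. Of the calmodulin genes, Calm2 was 0.58 higher and Calm3 differed by -1.0.

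The regulators of transcellular transport were measured for all 23 listed genes, with 9 higher, 12 lower and 2 not past the threshold (median -0.71). The calcium-sensing receptor gene Casr was 4.20 ± 0.46 higher (18.4-fold), and Wnk4, a kinase that regulates Slc12a3, 3.43 higher. Cyp24a1, which degrades active vitamin D, differed by -5.18 ± 0.98, and Stc2, a stanniocalcin, was at least 7.06-fold lower. Vdr, the vitamin D receptor, was 1.22 higher, Kl, the co-receptor klotho, 1.69, and Klk1, tissue kallikrein, 1.82. Pth1r, the parathyroid hormone receptor, differed by -0.84 (adjusted p = 0.0165).

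For the paracellular route, 4 of 8 claudins were called higher, 3 lower and 1 neither (median 0.95). Cldn8 was 3.38 and Cldn3 2.05 higher, both barrier-forming claudins, while the pore-forming Cldn2 and Cldn10 differed by -5.28 and -5.05. Cldn16 was 1.58 and Cldn19 1.17 higher, Cldn12 differed by -0.89, and Cldn14, which did not pass, by 0.73. Of 17 genes of intracellular stores and store-operated entry, the test called 3 higher and 6 lower and left 8 uncalled (median -0.05). Orai2, a store-operated channel, was 2.45 higher, and the ryanodine receptor Ryr2 at least 2.55-fold and Ryr3 at least 2.08-fold higher, neither well above background in EGFP- tubules. Stim1, the store sensor that opens Orai channels, differed by -1.83, the inositol trisphosphate receptor gene Itpr3 by -1.55, and Pln, phospholamban, was at least 2.26-fold lower.

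**Figure D4:**
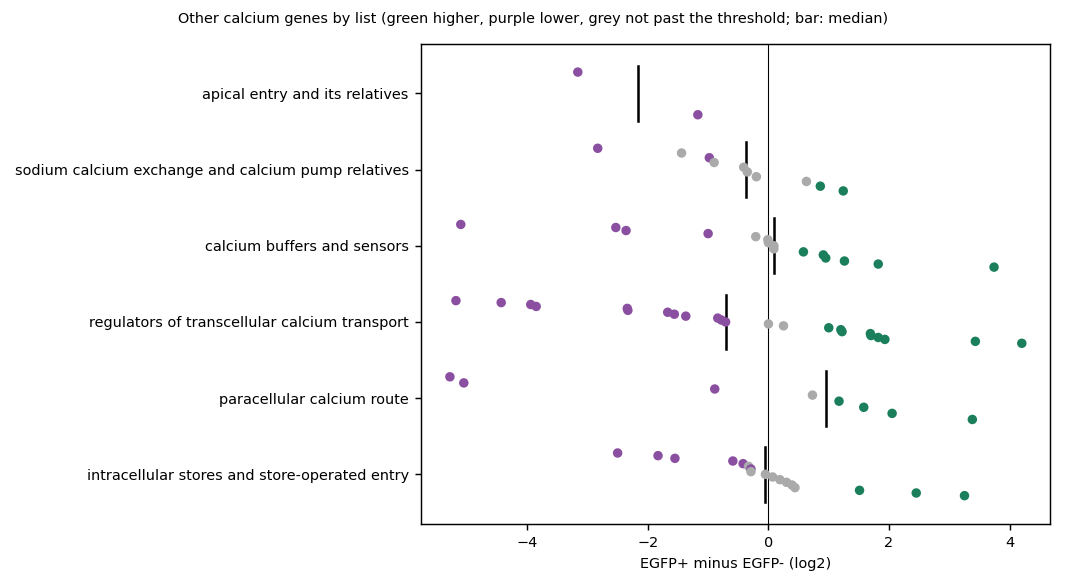
Log2 difference between EGFP+ and EGFP- tubules of other calcium genes in 6 lists, each point 1 gene, green where higher, purple where lower and grey where not past the threshold, with a bar at the list's median. The medians run from -2.16 for the TRPV relatives to 0.95 for the paracellular claudins, beside 3.09 for the 8 member genes by 1 probe each.

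Markers of other kidney cells moved with the fractions. All 7 proximal tubule markers were lower in EGFP+ tubules (median -4.93, first listed gene Slc34a1 -4.72), as were all 5 podocyte (Nphs1 -6.47), 5 endothelial (Pecam1 -2.56) and 5 leukocyte markers (Ptprc -2.22), both measured erythroid markers (Hba-a1 -5.44) and 5 of 6 of smooth muscle and pericytes (Acta2 0.21, not past the threshold). Of 8 connecting tubule and principal cell markers 6 were lower (Aqp2 -3.59) and 2 higher, the sodium channel subunit genes Scnn1b by 1.04 and Scnn1g by 0.65. Their summed linear level was 8.28 to 11.6 in EGFP+, 32.0 to 36.5 in ALL, and 35.7 to 40.1 in EGFP- tubules. Of these 8, Aqp4 and Hsd11b2 were well above background on 0 of 4 EGFP+ arrays. Calb1, Trpv5 and Slc8a1 are known from the connecting tubule as well, and the part of these cells in the members' EGFP- levels was not tested.

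Thick ascending limb markers were higher in 4 of 5 (Slc12a1 0.75, median 1.58) and Cldn10 lower. The summed linear level of all 5 was 227 to 296 in EGFP+ and 87.4 to 110 in EGFP- tubules. Without Umod, which encodes uromodulin and has no value in ALL of mouse 2, it was 27.7 to 36.7 and 40.4 to 48.3. The order of the fractions thus turned without Umod, in a sum that keeps Cldn10, the marker that was lower. Without Cldn10 and with Umod, the sum was 226 to 295 in EGFP+ and 56.3 to 89.0 in EGFP- tubules. Of 6 intercalated cell markers 1 rose, 1 fell and 4 did not pass the threshold (Slc4a1 0.22). Their part in the members' differences was not tested.

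The genes whose pattern over the 12 arrays was most like that of a member were found by Pearson correlation among 16625 genes with a value on every array. These points share fractions, mice and libraries, so the values are a description. For Trpv5 they were Slco4a1, Sulf2 and Ctsc (0.994, 0.994 and 0.993), with 864 genes above 0.95, and for Slc8a1 they were Clu, Klk1b4 and Lrrc66 (0.993, 0.992 and 0.991), with 648 genes. For Calb1 they were Abca13, Sfrp1 and Ppp1r1a (0.993, 0.989 and 0.987), with 169 genes above 0.95. Pvalb had 33 such genes, and the closest were Slc12a3 itself (0.995), Mapk10 (0.983) and Hmgcll1 (0.977). Its correlations and count include the EGFP- values, where the probe was well above background on 0 of 4 arrays. The part of these undetected values in them was not tested.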

How the data were processed

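RNA of 12 samples, 3 sorted fractions of each of 4 mice, was measured on Agilent arrays (design 014868), read with Feature Extraction 9.5.3.1, per the file headers. The deposited scanner values are intensities on a linear scale, the processed signal already background-corrected by that software. The 12 columns of the authors' own values were not used here. Probe positions are in mm8 (NCBI36), per the file headers. No genome or annotation of mm8 was used here.

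Outlier-marked spots were left out, the spots of a probe averaged, and log2 signals scaled by the 75th percentile. Probes were tested with limma 3.58.1 in R 4.3.3 (packages data.table, version 1.17.8, and statmod, version 1.5.0), with 1 coefficient per fraction and Benjamini-Hochberg adjustment. The procedure was run on simulated data with independent noise on each array and no mouse or slide effect. It was therefore not tested under the pairing of arrays by mouse given below. Precision is limited by the number of arrays. Where no array of the dimmer fraction was well above background, the fold is a lower bound, taken against each dim array's lowest signal that was well above background or the probe's own signal, whichever was higher. Such a bound compares means over mice and makes no allowance for their spread. Deviations of the same mouse correlated between fractions by 0.23 to 0.81, so the mouse pairs the arrays. The main fit leaves this pairing out, and fits with the mouse as a block are given as alternatives.

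The members and lists were chosen with earlier results of these data known. Named genes were all member probes, the 4 largest changes past the threshold in each list and its channels, exchangers and pumps, the first gene of each marker list, and the 3 genes most like Trpv5, Calb1, Slc8a1 and Pvalb. S100a1, Calm2, Calm3, Vdr, Kl, Klk1, Pth1r, Cldn12, Cldn14, Cldn16, Cldn19, Itpr3, Scnn1b and Scnn1g were added after their values were seen. Some genes that the rule names are not reported here. Alternatives covered background correction, normalization, probe filter, spots left out, pairing, slide and leaving out each mouse.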

Additional observations from a re-analysis of the deposited data

Results flagged for a closer look

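In 49 groups of 4 mice, the highest or lowest value was set against the nearest other value, and 3 lay beyond Dixon's 95% critical value, where chance alone would place about 1 group in 20. The Trpv6 level in EGFP+ tubules of mouse 3 was 0.16, the highest, with the nearest at 0.05. The Calb1 level in EGFP+ tubules of mouse 1 was 7.58, the lowest, with the nearest at 7.85. The level of Slc8a1 probe A_51_P191448 in ALL of mouse 4 was -2.17, with the nearest at -0.99. Mouse 4 also had the lowest ALL level of Trpv5 (-1.90), Trpv6 (-3.20), Calb1 (5.86) and Atp2b2 (-2.89).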

How the results depend on the processing

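The EGFP+ minus EGFP- calls of Trpv5, Trpv6, Calb1, S100g, Pvalb, Atp2b2 and the 6 tested Slc8a1 probes kept their direction and their side of the threshold under every alternative run, as did the EGFP+ minus ALL calls of Trpv5, Trpv6, Calb1, S100g, Pvalb and Atp2b2. With 1 probe per gene both comparisons called 8 members, since only 8 are then tested. For EGFP+ against ALL, 8867 probes passed with normexp background correction. For ALL against EGFP-, the mouse as a replicate block made 10 member probes higher. Leaving out a mouse gave 103 to 330 probes past the threshold (103, 114 and 139 without mice 2, 3 and 1) and 2 to 8 member probes. For sex over mouse means 272 probes passed, 842 with median centring, 53 with no filter, 6235 with slide as a block (with 1 member probe), where all 12 arrays were fitted, and 30 to 51 without a mouse. The cause of these shifts was not tested.

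Signs turned for the following values. ALL minus EGFP- was 0.22 for Atp2b1 A_51_P230799 with normexp, -0.12 to 0.36 for A_52_P351913 over the fits without 1 mouse and 0.86 with normexp, and -0.04 for Atp2b2 with the slide block. Male minus female turned from -0.75 to 0.14 for A_52_P351913 with normexp and was 0.01 for Trpv5 with the slide block. Over the fits without 1 mouse it ran from -0.66 to 0.22 for Trpv5, -0.11 to 0.35 for Calb1 and -0.97 to 0.13 for Pvalb. The place of ALL was 41.5% for Atp2b1 A_52_P348986 with normexp, 197% with quantile normalization, and -0.265% to 7.17% for Atp2b2 with 1 mouse left out. Median centring moved the median of all probes from 0.14 to 0.30 for EGFP+ against EGFP- and from 0.13 to 0.33 against ALL. Slides hold different mixes of fraction and mouse, and the members' EGFP+ minus EGFP- differences within them, where both fractions had a value, had the pooled sign, for example 2.86, 2.62 and 3.02 for Trpv5 on slides 1 to 3.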
